A study of Homo sapiens with 6 samples.

Results

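The genes described here are 9 genes of the RAS switch in A549 cells, an established human line derived from a lung adenocarcinoma. They comprise the RAS genes HRAS and NRAS, the guanine nucleotide exchange factors SOS1, SOS2 and RASGRP1, and the GTPase-activating proteins (GAPs) NF1, RASA1, RASA2 and RASAL2. They were chosen by name, and all 9 were found among the 58174 genes of the deposited table. Each passed the filter of a mean of at least 0.5 FPKM that left 16006 genes for testing. FPKM is the number of fragments on a gene relative to its length and to the size of the library.

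PolyA RNA was sequenced from 3 libraries of parental A549 cells (Ctrl) and 3 libraries of A549 cells with a CRISPR/Cas9 deletion of MIR21 (MIR21-KO), all harvested 48 h after seeding in the same medium. MIR21-KO cells had been grown by the authors from single sorted cells that had received plasmids for Cas9 and the 2 guides flanking the target, and Ctrl cells were the parental population itself. How many clones these 3 libraries stand for was not given, so the deletion and differences between clones cannot be told apart. The study describes its RNA-seq samples as independent and its experiments as biologically replicated, while the labels give replicate numbers only, and the p-values measure the spread between these libraries.

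RAS proteins are small GTPases at the inner face of the plasma membrane. They signal while bound to GTP and rest while bound to GDP. Exchange factors open the nucleotide pocket so that GTP can enter, and GAPs speed up the hydrolysis of GTP, so that the activity of RAS is set by the balance of these enzymes as well as by the amount of RAS itself. Activated RAS drives the RAF, MEK and ERK kinase cascade, PI3K signalling and RAL exchange factors, and the pathway is a leading oncogenic driver in lung adenocarcinoma. MiR-21 is an abundant microRNA in many carcinomas. A microRNA represses transcripts whose 3′ untranslated region (UTR) pairs with its seed, that is bases 2 to 8. Let-7 is another microRNA family known for pairing with transcripts of RAS genes.

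The mature sequences are shown because their seeds define the sites that were looked for in the 9 genes. Sequences are from RefSeq (GRCh38.p14), 5′ to 3′, with the seed in capitals. MiR-21-5p lies at chr17:59841273-59841294 on the plus strand and let-7a-5p at chr9:94175962-94175983 on the plus strand.
miR-21-5p: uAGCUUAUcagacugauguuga
let-7a-5p: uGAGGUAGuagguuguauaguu

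The longest annotated 3′ UTR of each gene (GENCODE 29, GRCh38) was searched on the transcript strand for the complement of these seeds. For miR-21-5p the letters were ATAAGCT for the 7mer-m8, which pairs with the whole seed, ATAAGCTA for the 8mer, which adds an A after it, TAAGCTA for the 7mer-A1 and TAAGCT for the 6mer. For let-7 the 7mer-m8 read CTACCTC, the 8mer read CTACCTCA, the 7mer-A1 read TACCTCA and the 6mer read TACCTC. An 8mer holds the shorter sites within it and was counted once, as an 8mer. At least a 7mer for miR-21-5p was present in 5 of the 9 genes, compared with 13.2% of 19353 3′ UTRs and with 27.3% of the 6792 3′ UTRs of at least 2000 bases. An 8mer was present in RASGRP1, RASA2 and RASAL2, compared with 2.51% of all and 5.46% of the long 3′ UTRs. No site of either microRNA was found in HRAS or SOS1, and none for miR-21-5p in NF1. The sites are printed because miR-21 is what had been deleted, each in its transcript's sense with the match in capitals (GRCh38).
RASGRP1, 8mer, chr15:38489598-38489605, minus strand: aatactatttagaaATAAGCTAattg
RASA2, 8mer, chr3:141613682-141613689, plus strand: ttttttgtctgagcATAAGCTAtatt
RASA2, 7mer-m8, chr3:141613939-141613945, plus strand: gtcctttaaattttATAAGCTtgta
RASAL2, 8mer, chr1:178475844-178475851, plus strand: atagagcattaccaATAAGCTAaaag
RASAL2, 7mer-m8, chr1:178474878-178474884, plus strand: gttgattttaaattATAAGCTttaa
SOS2, 7mer-m8, chr14:50118208-50118214, minus strand: atgctactgatcaaATAAGCTttta
RASA1, 7mer-A1, chr5:87391062-87391068, plus strand: tgccagcaaccttgTAAGCTAtctg
NRAS, 6mer, chr1:114706478-114706483, minus strand: gatgttgataaatcTAAGCTgatg

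The RASA1 site stands in the 3′ UTR of a transcript annotated for nonsense-mediated decay, which has 2795 bases, and a 7mer-A1 is also present in the longest 3′ UTR of its protein-coding transcripts, which has 1048 bases. RASAL2 also holds a 6mer for miR-21-5p in its 3′ UTR of 10908 bases, the longest of the 9. For let-7, at least a 7mer was present in 4 of the 9 genes (NRAS, RASGRP1, RASAL2 and NF1), compared with 17.8% of all 3′ UTRs and 34% of the long ones. In NF1 the match of the longest 3′ UTR, a 7mer-A1, lay in a transcript annotated for nonsense-mediated decay. Another 2 of its 15 annotated 3′ UTRs, of the same kind of transcript, held a 7mer-m8, and the 3′ UTRs of its 7 protein-coding transcripts held no 7mer or 8mer for let-7. RASAL2 holds a 7mer-m8 and a 7mer-A1 for let-7, which are not printed. The let-7 matches of NRAS are shown since NRAS is the gene of the 9 with the smallest p-value between the groups. That of RASGRP1 is shown since it is the only let-7 8mer among the 9 genes.
NRAS, 7mer-m8, chr1:114707902-114707908, minus strand: agttctcagaataaCTACCTCctca
NRAS, 7mer-A1, chr1:114705496-114705502, minus strand: aaagaattctagttTACCTCAaaat
RASGRP1, 8mer, chr15:38490054-38490061, minus strand: tggctccttcttcaCTACCTCAgatc

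The libraries held 10631667 to 14345209 reads, and a read per kb of gene length amounted to 0.0731 to 0.0930 FPKM. The mature miR-21 is not captured by polyA selection: MIR21 (ENSG00000284190) was listed at 0 in all 6 libraries, which checks nothing. VMP1 (ENSG00000062716), whose transcription unit holds MIR21, measured 75.09 ± 3.825 FPKM in Ctrl and 142.5 ± 7.184 FPKM in MIR21-KO (SD, n = 3), a log2 fold change of 0.92 ± 0.081 (SE, limma adjusted p = 0.000473). Of the 6 epithelial markers, 6 in Ctrl and 5 in MIR21-KO had a mean over 1 FPKM, with summed levels of 1684 to 1807 and 1217 to 1745 FPKM. CDH1, which encodes E-cadherin, fell (log2 fold change -1.48, limma adjusted p = 0.000175). The other epithelial markers went in either direction, each with a limma adjusted p of at least 0.0153. Their log2 fold changes were -0.69 in KRT18, -0.68 in EPCAM, -0.23 in KRT8, 0.10 in KRT7 and 0.29 in KRT19. The 5 haematopoietic markers summed to 3.29 to 3.80 FPKM in Ctrl and 3.26 to 5.15 FPKM in MIR21-KO, nearly all from CD14, and the 3 endothelial markers to at most 0.0707 FPKM in any library. The 5 fibroblast markers summed to 5.32 to 5.83 and 4.83 to 7.10 FPKM, with COL1A1 and LUM over 1 FPKM in both groups. The part of these marker levels in the results was not tested.

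Libraries of the same group differed along the GC content of genes, and so did the groups. Tested genes were ranked by GC content into 5 equal bins. In the bin with the lowest GC content, the median deviation from the gene's mean over all libraries was -0.20 (log2) in MIR21-KO replicate 1, -0.12 in replicate 2 and 0.091 in replicate 3. In the bin with the highest GC content it was 0.21, 0.093 and -0.12. Ctrl replicate 1 departed from the other Ctrl libraries in the same way as MIR21-KO replicate 3, with 0.13 in the lowest and -0.096 in the highest bin. Ctrl replicates 2 and 3 had 0.056 and 0.069 in the lowest and -0.020 and -0.028 in the highest bin. In both bins MIR21-KO replicates 1 and 2 thus had the opposite sign to every Ctrl library. HRAS has a GC content of 65.77% in its longest transcript, and the other 8 genes have 36.69% to 43.62%, so that the genes lie at both ends of this trend. The log2 fold change of each gene is therefore given from a limma fit on the FPKM as deposited, and from a fit with the GC trend of each library removed. That trend is taken on deviations from the mean over all 6 libraries. Its removal also takes out what differs between the groups along GC content, so it moves fold changes as well as spread.

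**Figure D1:**
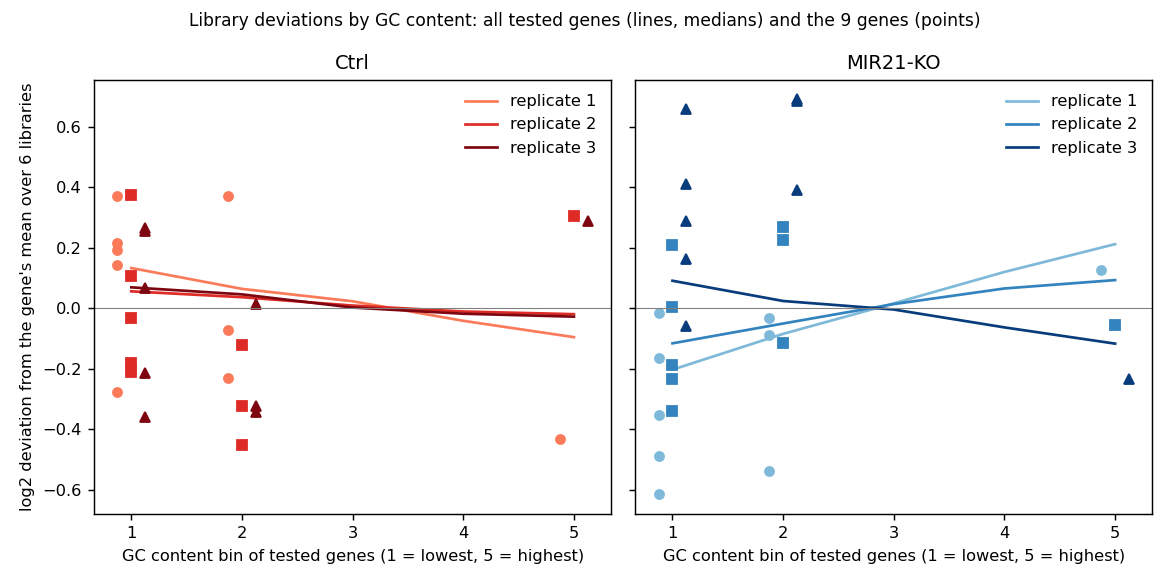
Log2 deviation of each library from a gene's mean over the 6 libraries (y axis), against the bin of tested genes by GC content (x axis, 1 = lowest), for Ctrl (left) and MIR21-KO (right). Lines are medians over all tested genes and points are the 9 genes; the lines of MIR21-KO replicates 1 and 3 run in opposite directions, from -0.20 to 0.21 and from 0.091 to -0.12.

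At a limma adjusted p under 0.01, the threshold used by the study, 0 of the 9 genes were called, whereas 16% of all tested genes were. At an unadjusted p under 0.05, 3 of the 9 had passed (NRAS, RASA1 and RASA2), compared with 43.2% of all tested genes, and the same 3 passed at an adjusted p under 0.05, as did 32% of all tested genes. Voom on the reads recovered from the FPKM called 1 of the 9, NRAS, and 21.8% of all genes. The groups did not overlap in 3 of the 9 genes, again NRAS, RASA1 and RASA2, compared with 48.1% of all tested genes. The median log2 fold change of the 9 genes was -0.11, and that of all tested genes was -0.017. These are bulk libraries, in which fewer cells of a type and less RNA per cell cannot be told apart.

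NRAS (ENSG00000213281, chr1:114704469-114716894, minus strand) encodes the RAS protein first found in neuroblastoma. It measured 17.1, 17.2 and 15.9 FPKM in Ctrl and 8.60, 10.4 and 12.7 FPKM in MIR21-KO. Every MIR21-KO library was below every Ctrl library, and the 3 Ctrl values lay close together while those of MIR21-KO spread. The means were 16.7 ± 0.708 and 10.6 ± 2.05 FPKM (SD, n = 3), so that Ctrl was 1.58-fold higher. The log2 fold change was -0.67 ± 0.14 (SE, 95% interval -1.01 to -0.34), with a limma adjusted p of 0.0126, which misses the threshold. With the GC trend removed, that value was -0.52 and the adjusted p 0.00364, and the SD of the log2 values within MIR21-KO went from 0.28 to 0.13. NRAS was thus called in that fit, and so it was with voom (adjusted p = 0.00333) and without MIR21-KO replicate 3 (log2 fold change -0.81, adjusted p = 0.00220). Over the alternatives the log2 fold change of NRAS ranged from -0.81 to -0.51 and the adjusted p from 0.00220 to 0.0496.

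HRAS (ENSG00000174775, chr11:532242-537287, minus strand) encodes the cellular counterpart of the oncogene of Harvey sarcoma virus. It measured 17.8, 29.8 and 29.5 FPKM in Ctrl and 26.3, 23.2 and 20.5 FPKM in MIR21-KO. Ctrl replicate 1 was below every other library, and the MIR21-KO values lay between it and the remaining Ctrl libraries. MIR21-KO and Ctrl differed by a log2 fold change of -0.11 ± 0.21 (SE, 95% interval -0.62 to 0.40, limma adjusted p = 0.732). Without Ctrl replicate 1 it was -0.35 (adjusted p = 0.104), and without Ctrl replicate 2 or 3 its sign turned (0.018 and 0.0098). With the GC trend removed, the SD of the log2 values within MIR21-KO went from 0.18 to 0.029, that within Ctrl from 0.42 to 0.37, and the log2 fold change was -0.25 (adjusted p = 0.297). The sum of HRAS and NRAS was 34.9, 46.9 and 45.4 FPKM in Ctrl and 34.9, 33.6 and 33.1 FPKM in MIR21-KO. The lowest Ctrl library and the highest MIR21-KO library were nearly equal in this sum.

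**Figure D2:**
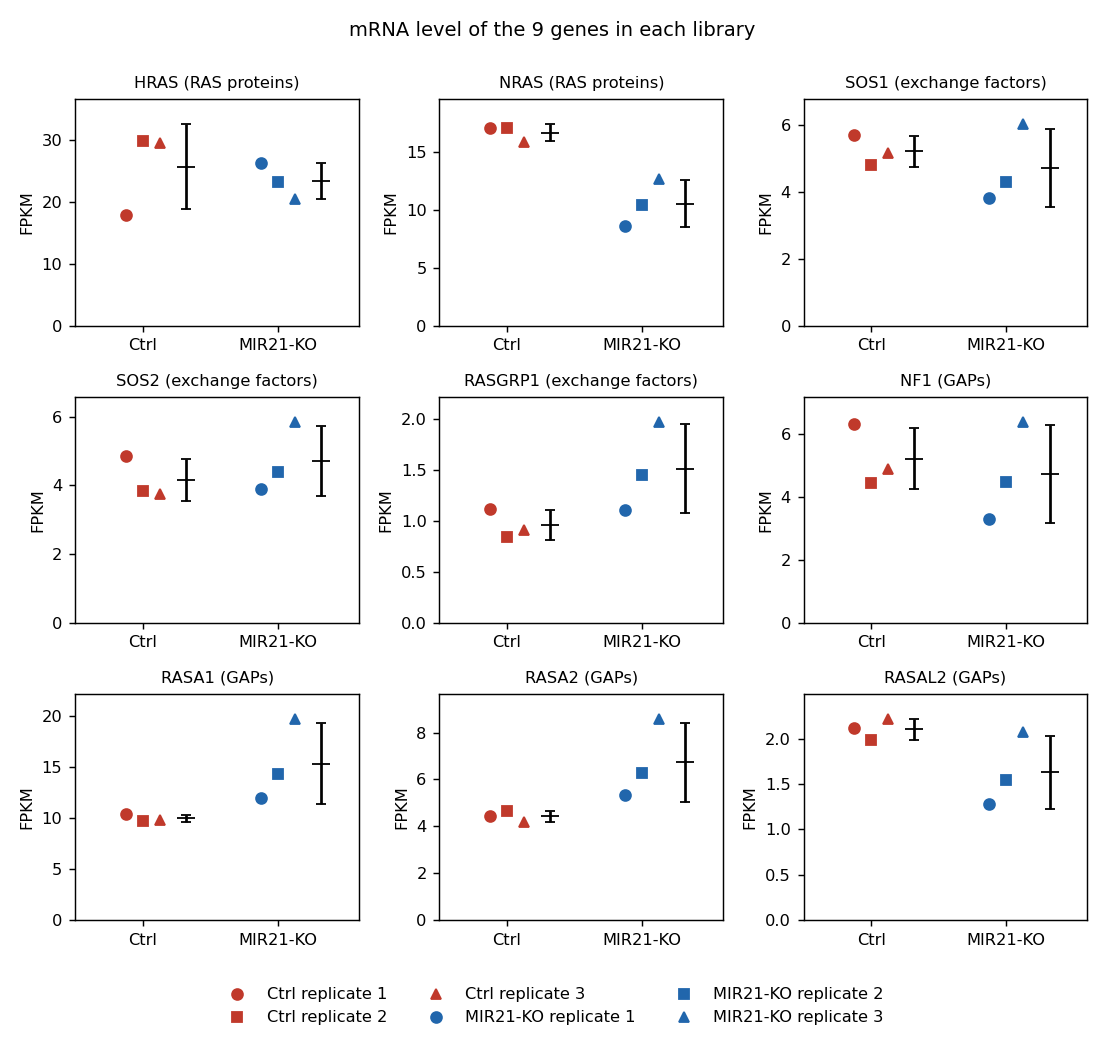
FPKM (y axis, from 0) of each of the 9 genes in the 3 Ctrl and the 3 MIR21-KO libraries; symbols mark the replicate, and the bars beside them are the mean ± SD. NRAS is lower, and RASA1 and RASA2 are higher, in each of the 3 MIR21-KO libraries than in any Ctrl library, and the other 6 genes overlap.

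Among the exchange factors, SOS1 and SOS2 are close relatives that the adaptor GRB2 brings to activated growth factor receptors. SOS1 (ENSG00000115904, chr2:38981396-39124345, minus strand) measured 5.72, 4.80 and 5.15 FPKM in Ctrl and 3.82, 4.30 and 6.03 FPKM in MIR21-KO. SOS2 (ENSG00000100485, chr14:50117120-50231558, minus strand) measured 4.85, 3.85 and 3.76 FPKM in Ctrl and 3.89, 4.39 and 5.86 FPKM in MIR21-KO. In both genes the groups overlapped, with MIR21-KO replicate 3 the highest of all 6 libraries. The log2 fold change was -0.17 ± 0.18 for SOS1 (SE, 95% interval -0.59 to 0.26, limma adjusted p = 0.509) and 0.17 ± 0.18 for SOS2 (95% interval -0.26 to 0.59, adjusted p = 0.512). With the GC trend removed these were -0.0088 (adjusted p = 0.960) and 0.30 (adjusted p = 0.122). Leaving out MIR21-KO replicate 1 gave -0.032 for SOS1 and 0.29 for SOS2, and leaving out MIR21-KO replicate 3 gave -0.35 and 0.0036.

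RASGRP1 (ENSG00000172575, chr15:38488103-38565575, minus strand) encodes an exchange factor that responds to diacylglycerol and calcium and is best known from T cells. It was the lowest of the 9 genes, with 55 to 156 reads per library. It measured 1.12, 0.839 and 0.911 FPKM in Ctrl and 1.11, 1.45 and 1.97 FPKM in MIR21-KO. Ctrl replicate 1 and MIR21-KO replicate 1 were nearly equal, and the other MIR21-KO libraries were above all Ctrl libraries. CD3E, which T cells express, was listed at 0 in all 6 libraries. The log2 fold change of RASGRP1 was 0.58 ± 0.24 (SE, 95% interval -0.0019 to 1.16, limma adjusted p = 0.117). With the GC trend removed the groups no longer overlapped, and the log2 fold change was 0.67 (adjusted p = 0.0487), which also misses the threshold. Leaving out MIR21-KO replicate 3 gave 0.38 (adjusted p = 0.237), and leaving out replicate 1 of that group gave 0.77 (adjusted p = 0.0525).

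The GAPs had log2 fold changes of either sign. RASA1 (ENSG00000145715, chr5:87267888-87391931, plus strand) encodes a GAP with SH2 domains that binds activated receptors. It measured 10.4, 9.74 and 9.75 FPKM in Ctrl and 12, 14.3 and 19.7 FPKM in MIR21-KO, without overlap. The log2 fold change was 0.59 ± 0.18 (SE, 95% interval 0.17 to 1.0), with a limma adjusted p of 0.0432, and with the GC trend removed it was 0.66 (adjusted p = 0.0138). Neither value passes the threshold of 0.01. Without removal of the GC trend the adjusted p was above 0.05 in some alternatives, at 0.0763 with scaling by total reads and 0.0689 with the replicate block. With a library left out the adjusted p ranged from 0.0117 to 0.117, and the log2 fold change was 0.39 without MIR21-KO replicate 3. Exons of RASA1 share 771 bases, 14.7% of their union, with CCNH on the opposite strand, and whether strand was used in counting is not given. CCNH fell, with a log2 fold change of -0.53 (limma adjusted p = 0.00451), opposite in sign to RASA1. Exons shared with any other gene made up at most 3.51% of the exons of each of the other 8 genes, that being RASAL2 with CLEC20A.

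RASA2 (ENSG00000155903, chr3:141487047-141615342, plus strand) encodes a GAP of another subfamily, which binds phospholipids. It measured 4.44, 4.65 and 4.18 FPKM in Ctrl and 5.34, 6.26 and 8.58 FPKM in MIR21-KO. Here too each MIR21-KO library was above each Ctrl library, with MIR21-KO replicate 3 the highest. Its log2 fold change was 0.57 ± 0.17 (SE, 95% interval 0.15 to 0.98, limma adjusted p = 0.0475). The adjusted p was 0.0832 with scaling by total reads, 0.0844 with the replicate block and 0.017 to 0.136 with a library left out. Without MIR21-KO replicate 3 the log2 fold change was 0.38. With the GC trend removed, the spread within MIR21-KO went from an SD of 0.34 to 0.17, and the log2 fold change of 0.73 passed the threshold (adjusted p = 0.00281). RASA2 and NRAS were the 2 genes of the 9 called in that fit, which called 21.1% of all tested genes, and the same 2 were called with the GC and length trends removed, where 24.7% of all tested genes were.

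NF1 (ENSG00000196712, chr17:31094927-31382116, plus strand) encodes neurofibromin, the GAP lost in neurofibromatosis and in a fraction of lung adenocarcinomas. It measured 6.30, 4.45 and 4.89 FPKM in Ctrl and 3.31, 4.47 and 6.39 FPKM in MIR21-KO. The MIR21-KO values spanned the whole range of Ctrl and beyond it on both sides. The log2 fold change was -0.17 ± 0.25 (SE, 95% interval -0.77 to 0.42, limma adjusted p = 0.632), and without MIR21-KO replicate 1 its sign turned (0.051). With the GC trend removed it was -0.064 (adjusted p = 0.839). RASAL2 (ENSG00000075391, chr1:178094141-178484147, plus strand), a GAP of the SynGAP family, measured 2.12, 1.99 and 2.21 FPKM in Ctrl and 1.28, 1.55 and 2.07 FPKM in MIR21-KO. Its MIR21-KO replicate 3 lay within the Ctrl range and the others lay below it. Its log2 fold change was -0.37 ± 0.19 (SE, 95% interval -0.83 to 0.084, limma adjusted p = 0.184), and -0.25 with the GC trend removed (adjusted p = 0.239). Leaving out MIR21-KO replicate 1 gave -0.22, and leaving out replicate 3 of that group gave -0.55.

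**Figure D3:**
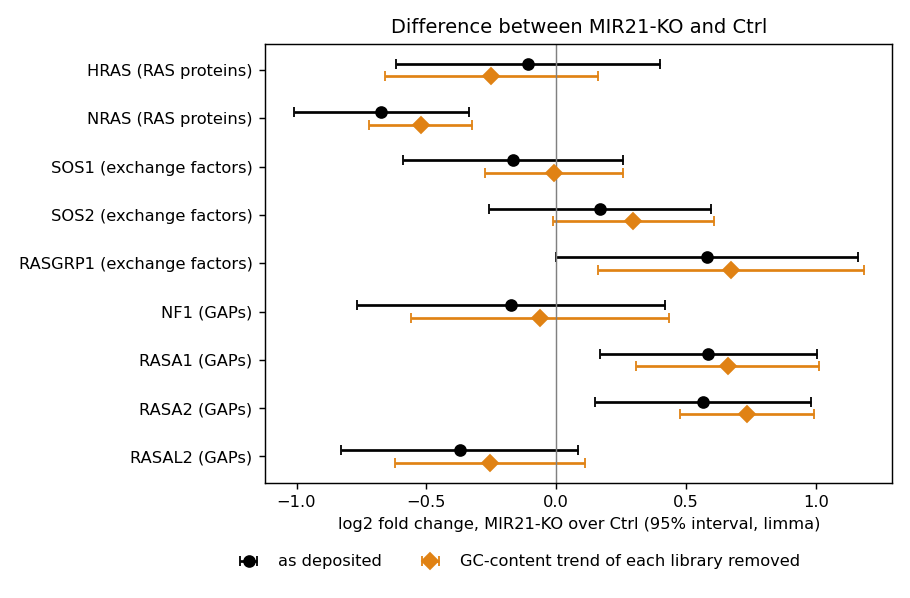
Log2 fold change of MIR21-KO over Ctrl (x axis) with its 95% interval from limma for each of the 9 genes. Black circles are fits on the FPKM as deposited, and orange diamonds are fits with the GC-content trend of each library removed. The intervals of NRAS, RASA1 and RASA2 leave out 0 in both fits, and that of RASGRP1 leaves it out after removal of the GC trend.

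The genes with an 8mer for miR-21-5p did not share a sign: the log2 fold changes were 0.58 in RASGRP1 and 0.57 in RASA2 but -0.37 in RASAL2. Of the genes with a 7mer only, RASA1 had 0.59 and SOS2 had 0.17. The genes without a 7mer or 8mer, HRAS, NRAS, SOS1 and NF1, had values of -0.11, -0.67, -0.17 and -0.17. Genes with at least a 7mer for let-7 did not share a sign either, with -0.67 in NRAS, -0.37 in RASAL2, -0.17 in NF1 and 0.58 in RASGRP1. Not every annotated 3′ UTR of a gene holds its miR-21-5p site. The 8mer was in 2 of 9 for RASGRP1, 1 of 2 for RASA2 and 1 of 3 for RASAL2. The 7mer was in 4 of 5 for RASA1 and 1 of 4 for SOS2. FPKM per gene do not tell which 3′ UTR was expressed. With 9 genes these signs are a description of the list, and no test was made of them.

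In the MIR21-KO libraries the genes varied together. In 8 of the 9, all but HRAS, replicate 1 was the lowest and replicate 3 the highest of the group, an order found in 28.5% of tested genes, and HRAS had the opposite order, found in 32% of tested genes. Among the 6382 tested genes of the lowest 2 GC bins, where those 8 genes lie, the order of the 8 was found in 46.1%. After removal of the GC trend it was seen in 8 of the 9 genes again, in 29.5% of tested genes of these bins and in 28.2% of all tested genes. Ratios between genes within a library leave out what the genes share, and all 10 ratios between genes of the same role were computed after the FPKM had been seen. In 7 of the 10 the groups did not overlap, compared with 47.8% of all pairs of tested genes with reads in every library. The 10 ratios share their genes and are not independent of each other. With 3 libraries against 3 the exact permutation test cannot give a p below 0.1, so that no test was made.

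The ratios of RASA1 and RASA2 to RASAL2 separated the groups most widely. RASA1 over RASAL2 was 4.91, 4.90 and 4.40 in Ctrl and 9.33, 9.24 and 9.51 in MIR21-KO. RASA2 over RASAL2 was 2.1, 2.34 and 1.89 in Ctrl and 4.17, 4.04 and 4.14 in MIR21-KO. Both ratios were nearly constant within MIR21-KO, although each of these genes spread widely there. RASA1 over RASA2 was 2.34, 2.09 and 2.33 in Ctrl and 2.24, 2.29 and 2.30 in MIR21-KO, and here the groups overlapped.

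The ratio of NF1 to RASA1 was 0.606, 0.456 and 0.502 in Ctrl and 0.277, 0.312 and 0.324 in MIR21-KO. The ratio of NF1 to RASA2 was 0.955 to 1.42 in Ctrl and 0.620 to 0.745 in MIR21-KO, whereas that of NF1 to RASAL2 overlapped. RASA1 and RASA2 thus had a larger share of GAP mRNA, relative to NF1 and RASAL2, in every MIR21-KO library. Among the exchange factors, SOS1 over SOS2 was 1.18, 1.25 and 1.37 in Ctrl and 0.981, 0.980 and 1.03 in MIR21-KO. SOS1 over RASGRP1 was 5.10 to 5.72 in Ctrl and 2.97 to 3.45 in MIR21-KO, and SOS2 over RASGRP1 was 4.13 to 4.59 and 2.97 to 3.52. HRAS over NRAS was 1.04 to 1.85 in Ctrl and 1.61 to 3.06 in MIR21-KO, which overlap.

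**Figure D4:**
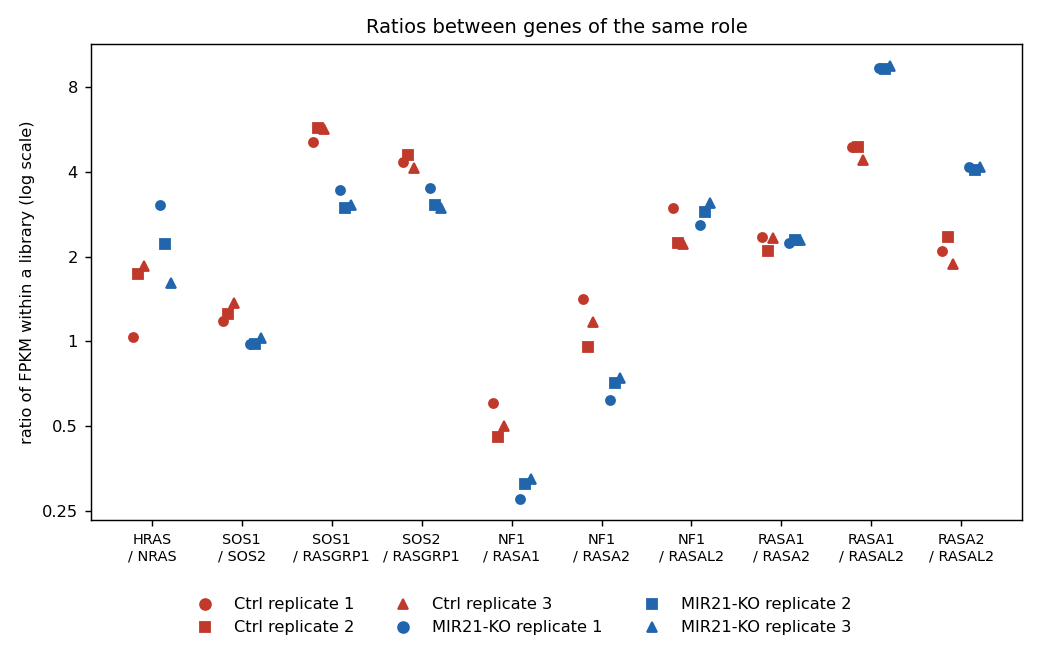
Ratio of the FPKM of 2 genes of the same role within each library (y axis, log scale) for the 10 pairs (x axis); red symbols are Ctrl and blue symbols MIR21-KO, with the replicate by symbol. The groups are apart in 7 pairs, most widely in RASA1 over RASAL2 (4.40 to 4.91 against 9.24 to 9.51), and overlap in HRAS over NRAS, NF1 over RASAL2 and RASA1 over RASA2.

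Summed by role, the exchange factors measured 11.7, 9.48 and 9.83 FPKM in Ctrl and 8.82, 10.1 and 13.9 FPKM in MIR21-KO, and the GAPs 23.2, 20.8 and 21 FPKM in Ctrl and 21.9, 26.6 and 36.7 FPKM in MIR21-KO. Both sums overlapped between the groups. The GAP sum over the exchange factor sum was 1.99, 2.20 and 2.14 in Ctrl and 2.48, 2.62 and 2.65 in MIR21-KO. The means were 2.11 ± 0.107 and 2.58 ± 0.0908 (SD, n = 3), without overlap. Ratios between single genes were also without overlap in 47.8% of all pairs of tested genes with reads in every library. That share is of single genes and not of sums, and the ratio of sums was not tested. These sums are of mRNA per length and weigh each gene by its level. At the deposited lengths RASA1 makes up the largest part of the GAP sum. The sums hold only the 9 genes and leave out other GAPs and exchange factors, such as RASA3 and RASGRF2.

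On the per-length scale of FPKM, the order of levels in Ctrl was HRAS (25.7 ± 6.83 FPKM, SD, n = 3), NRAS, RASA1 (9.96 ± 0.372), SOS1 (5.22 ± 0.463), NF1 (5.21 ± 0.968), RASA2 (4.43 ± 0.235), SOS2 (4.15 ± 0.603), RASAL2 (2.11 ± 0.114) and RASGRP1 (0.957 ± 0.147). Neighbours from SOS1 through SOS2 in this order overlapped between libraries, and the others did not. In MIR21-KO the order was HRAS (23.3 ± 2.92 FPKM), RASA1 (15.3 ± 3.97), NRAS, RASA2 (6.73 ± 1.67), NF1 (4.72 ± 1.56), SOS1 (4.72 ± 1.16), SOS2 (4.71 ± 1.02), RASAL2 (1.63 ± 0.402) and RASGRP1 (1.51 ± 0.436). There RASA1 overlapped NRAS, the genes from RASA2 through SOS2 overlapped their neighbours, and RASAL2 overlapped RASGRP1. The deposited length was the union of all annotated exons in 9 of 9 genes. For NF1 that union is 27130 bases, compared with 12425 bases for its longest transcript, so the place of NF1 in the order depends on this length. The comparison of NF1 itself between the groups does not. The GAP sums, and their ratio to the exchange factor sums, do depend on it.

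For the RAS genes, the genes with the most similar course over the 6 libraries were listed by the root mean square difference of log2 values, each gene centred on its own mean. For NRAS these were RP4.555D20.2 (0.041), IGF2BP3 (0.046), which encodes an mRNA-binding protein, and CRIM1 (0.047). For HRAS they were PIGBOS1 (0.055), FBXL6 (0.088) and LINC02084 (0.096). The points share libraries and their GC trend, and nothing follows from the likeness about function.

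The wider pathway was described with 6 lists of 65 genes, of which 53 were tested. Of these, 8 were called at a limma adjusted p under 0.01, 5 higher and 3 lower in MIR21-KO, which is 15.1% of the tested list genes beside 16% of all tested genes (7.66% higher and 8.38% lower). The median log2 fold change was 0.014. Without each Ctrl library in turn or without MIR21-KO replicate 2, only RASA3 and KSR1 kept their call each time, and RIT1 kept it without Ctrl replicate 2. These 2 genes also kept it without the remaining MIR21-KO libraries, with adjusted p of 0.000459 to 0.00271 for RASA3 and 0.00134 to 0.00666 for KSR1.

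RASA3, a relative of RASA2 and the called gene of the 3 other RAS GAPs tested, measured 7.27, 8.30 and 7.52 FPKM in Ctrl and 18.3, 17.1 and 17.3 FPKM in MIR21-KO. It rose by 1.18 on the log2 scale (SE 0.081, limma adjusted p = 0.000202). Its MIR21-KO libraries lay close together, unlike those of RASA1 and RASA2. Of the 7 genes in that list, RASA4 and RASA4B are near-identical copies whose reads could have been split, and they were among the 4 below the filter. Of the 5 other exchange factors only RASGRF2 was tested, which answers to calcium. It measured 3.75, 3.30 and 3.85 FPKM in Ctrl and 6.16, 7.62 and 8.89 FPKM in MIR21-KO, and rose by 1.02 on the log2 scale (SE 0.15, adjusted p = 0.00333).

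Among the RAS relatives, 2 of 12 tested genes were called, both higher. MRAS, which with SHOC2 activates RAF, went from 2.91 ± 0.353 to 5.03 ± 0.324 FPKM (SD, n = 3, log2 fold change 0.77, limma adjusted p = 0.00425). RIT1, a GTPase mutated in some lung adenocarcinomas, went from 6.47 ± 0.504 to 9.74 ± 0.142 FPKM (log2 fold change 0.59, adjusted p = 0.00320). Of the 7 receptor adaptors 0 were called by limma and 0 by voom, and 4 had an unadjusted p under 0.05, beside 43.2% of all tested genes. The smallest p among them was that of SHC1, an adaptor that links receptors to GRB2, at 66.0 ± 1.56 and 81.9 ± 3.83 FPKM (log2 fold change 0.31, adjusted p = 0.0178).

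Among the effectors, 2 of 19 tested genes were called, in opposite directions. KSR1, the scaffold of the RAF, MEK and ERK cascade, measured 4.88, 4.15 and 4.42 FPKM in Ctrl and 8.55, 8.69 and 9.16 FPKM in MIR21-KO and rose by 0.96 on the log2 scale (SE 0.093, limma adjusted p = 0.000678). PLCE1, a phospholipase C bound by RAS, fell from 2.88 ± 0.278 to 1.16 ± 0.205 FPKM (log2 fold change -1.26, adjusted p = 0.00233). Of the 11 genes of RAS lipidation and turnover 2 were called, both lower. ICMT, which methylates the processed end of RAS proteins, went from 31.0 ± 0.523 to 23.6 ± 0.0855 FPKM (log2 fold change -0.39, adjusted p = 0.00409). LYPLA1, a thioesterase that removes palmitate from HRAS and NRAS, went from 24.4 ± 0.857 to 14 ± 2.61 FPKM (log2 fold change -0.81, adjusted p = 0.00536).

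**Figure D5:**
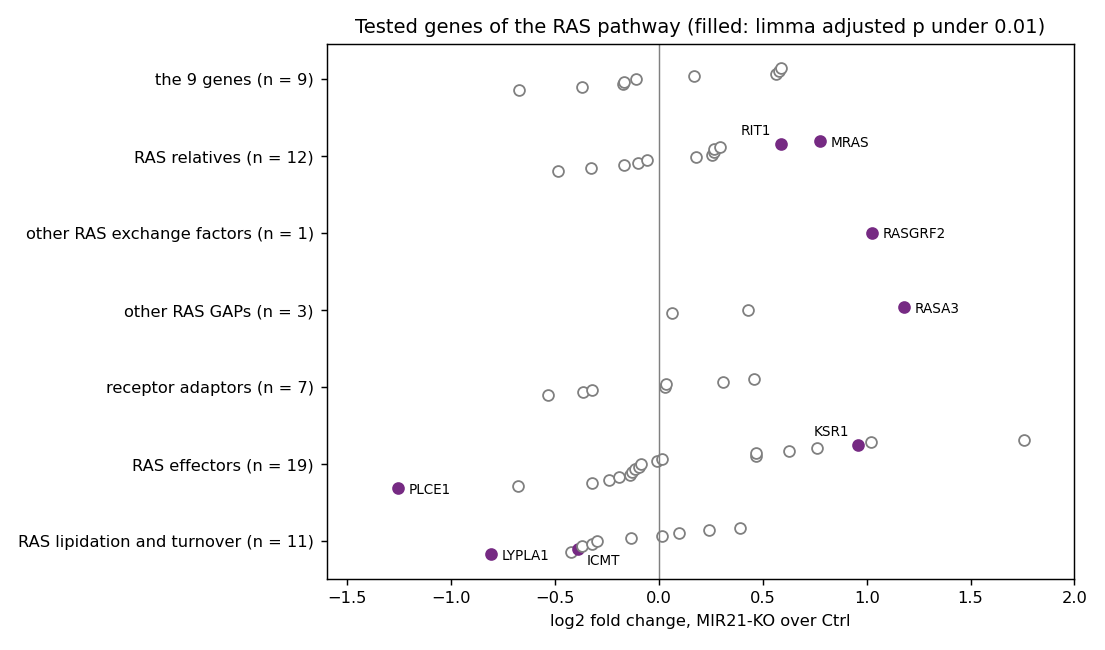
Log2 fold change of MIR21-KO over Ctrl (x axis) of every tested gene of the 9 genes and of the 6 pathway lists (y axis, n = genes tested), each point a gene, filled and named at a limma adjusted p under 0.01. None of the 9 genes is filled, and 8 of 53 list genes are, from PLCE1 at -1.26 to RASA3 at 1.18.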

How the data were processed

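PolyA-selected, strand-specific RNA-seq data of 6 A549 libraries were used, 3 Ctrl and 3 MIR21-KO, grouped and numbered by their titles. The authors deposited a table with gene length and FPKM per library, and the results of their own comparison (log2 fold change, p-value and FDR), which were not used. The submitters' processing notes name cutadapt 1.14, HISAT2 2.1.0, SAMtools 1.5, featureCounts 1.5.3, edgeR 3.18.1 and hg38. The annotation and the use of strand in counting are not given in the sources used here.

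FPKM times length were whole multiples of 1 read for 100% of values (tolerance 0.01), and reads were recovered from them. Library sizes implied by the FPKM were 0.9497 to 1.0304 times the read totals. No library was a copy of another (chi-square per degree of freedom at least 2.755 for every pair).

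Genes at or above a mean of 0.5 FPKM were tested on log2(FPKM + 0.1), a scale that understates changes of low genes, with limma 3.58.1 in R 4.3.3 (eBayes with trend and robust fitting, two-sided). P-values were adjusted over all 16006 genes by the Benjamini-Hochberg method. The procedure was also run on simulated reads, drawn independently for each gene and library without a GC trend. That run therefore says nothing about the GC trend of these libraries. GC content (longest transcript, GENCODE 29) was available for 15955 tested genes (99.68%), and its trend was removed per library by lowess with a span of 0.3. Seeds were matched in 3′ UTRs of at least 30 bases.

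The 9 genes and the lists were chosen with earlier results of these data known. The genes named were the 9 in every library, MIR21 and VMP1, the 3 tested genes most like HRAS and NRAS, up to 3 called genes per direction and pathway list and, in a list without calls, the gene with the smallest p. CCNH was named for its overlap, and the markers for their levels. Alternatives were other filters, pseudocounts, scalings, thresholds and models, removal of trends on length or GC content, a replicate block and leaving out each library. Figures were drawn with matplotlib 3.10.9.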

Additional observations from a re-analysis of the deposited data

How the results depend on the processing

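The fit reported called 2568 genes, compared with 5114 at an adjusted p under 0.05, 3957 with GC content and length trends removed, and 784 to 3418 when a library was left out (918, 933 and 889 without Ctrl replicates 1, 2 and 3, and 784 without MIR21-KO replicate 2). Of the 9 genes none was called in the fit reported; NRAS alone was called under a filter of 5 FPKM (1 of the 4 genes that pass it), a filter of 10 reads (1) and with voom (1), NRAS and RASA2 with the GC trend removed (2) and with GC content and length trends removed (2), and NRAS, RASA1 and RASA2 at an adjusted p under 0.05 (3). Leaving out a library gave 0 to 1. Of the 53 list genes tested, 8 were called as reported, 26 at an adjusted p under 0.05, 13 with voom, 15 with the GC trend removed, 17 with GC content and length trends removed and 2 to 18 with a library left out (18 without MIR21-KO replicate 3, and 2 or 3 without a Ctrl library or MIR21-KO replicate 2). The log2 fold change of HRAS reversed without Ctrl replicate 2 (0.018) or 3 (0.0098), and that of NF1 without MIR21-KO replicate 1 (0.051), with ranges of -0.35 to 0.018 and -0.41 to 0.051 over the libraries left out; the cause was not tested. No other sign turned. Sites in protein-coding transcripts only, and the removal of GC trends, were chosen after seeing the data.

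Replicate numbers were shared between the groups, but deviations of same-numbered libraries did not go together (correlations -0.171, -0.0177 and -0.0174), so the libraries were not treated as pairs. With the replicate block, 651 genes, 0 of the 9 (3 at an unadjusted p under 0.05) and 2 list genes, RASA3 and KSR1, were called.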
